A study of Macaca mulatta with 51 samples.

Results

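Expression of the genes for triglyceride assembly and glyceroneogenesis was followed in subcutaneous AT and gastrocnemius SM of rhesus macaques through FGF21 treatment and its withdrawal. The genes were chosen by symbol: GPAM, AGPAT2, AGPAT3, LPIN1, DGAT1, DGAT2, GPD1, PCK1, PCK2 and AQP7. Of these 10 genes, 9 were found among the 16033 genes of the count table, and DGAT1 is not analysed here. The 9 genes were carried under the human Entrez identifiers 57678 (GPAM), 10555 (AGPAT2), 56894 (AGPAT3), 23175 (LPIN1), 84649 (DGAT2), 2819 (GPD1), 5105 (PCK1), 5106 (PCK2) and 364 (AQP7). All 9 passed the filter on low counts in both tissues.

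An adipocyte builds triglyceride by adding fatty acids to a glycerol 3-phosphate backbone. GPAM adds the first acyl chain in mitochondria, enzymes of the AGPAT family add the second, lipins such as LPIN1 remove the phosphate to leave diacylglycerol, and a DGAT enzyme adds the last chain. The backbone comes from glycolysis through GPD1, or from pyruvate and related precursors through glyceroneogenesis, which needs the cytosolic (PCK1) or mitochondrial (PCK2) phosphoenolpyruvate carboxykinase. Glycerol set free by lipolysis leaves the fat cell through the channel AQP7, because adipocytes have little glycerol kinase.

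The animals were DIO rhesus macaques, obese but not diabetic, 11 to 22 years old and held on a high-fat, high-sucrose diet for 2 years or more. There were 5 males and 5 ovariectomized females. Every animal received FGF21, so that each served as its own control and no untreated arm ran in parallel. FGF21 was injected daily at doses raised in steps, with a lower final dose in an animal that lost much weight. The paper reports that the animals lost weight during treatment and regained it during washout. It states that effects of FGF21 and of weight loss could not be separated, and body weight was not used here. Punch biopsies were taken pre-treatment, after 12 weeks of FGF21 (post-treatment) and 16 weeks after dosing ended (washout). AT gave 10, 9 and 8 libraries at these time points, from 10 animals, and SM gave 6, 8 and 7 libraries from 8 animals. Libraries of the same animal were treated as linked.

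Library totals ran from 14455195 to 23940980 counts. In AT no member had fewer than 158 counts in any library, so differences between animals rather than counting error set the precision there. All 11 macrophage markers that were measured had a positive log2 fold change from pre- to post-treatment in AT and 2 passed the test, with summed levels of 668–2914 CPM pre-treatment, 1063–6893 CPM post-treatment and 444–3203 CPM at washout. Of 11 mature adipocyte markers listed, 5 were found and 4 tested. All 4 had negative values and 2 were called lower (PLIN1 and LEP), and the summed adipocyte level was 15564–32426 CPM pre-treatment, 9439–28012 CPM post-treatment and 10265–29734 CPM at washout. No measured marker of these 2 lists was at 0 in a whole group. Other lists moved as well. T cell markers were positive post-treatment for 6 of 6 genes and 1 was called higher (CD8A), with summed levels of 69.0–193 CPM, 104–390 CPM and 40.8–156 CPM at the 3 time points. Progenitor markers were positive for 9 of 11 and 2 were called higher (DPP4 and COL1A1), with sums of 14140–31530 CPM, 18179–42076 CPM and 11192–37356 CPM. Erythroid markers were negative for all 4 tested and 1 was called lower (SLC4A1), with sums of 327–10554 CPM, 454–7644 CPM and 457–11989 CPM and with HBA1 and HBA2 at 0 in every group. Endothelial markers were positive for 3 of 7 and 0 were called, with sums of 814–1560 CPM, 717–1730 CPM and 815–2409 CPM. In bulk tissue, fewer cells of a type and less RNA per cell cannot be told apart, and the part of cell makeup in the results below was not tested. SM libraries carried muscle fibre markers at 58552 to 276596 CPM in sum, and both the pre- and post-treatment SM libraries of animal 24849 stood apart by their adipocyte transcripts.

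In AT, GPAM, AGPAT2, LPIN1 and DGAT2, enzymes on the path from glycerol 3-phosphate to triglyceride, were lower after FGF21 treatment. Post-treatment compared to pre-treatment, 4 of the 9 genes were DE, against 15.5% of the 13367 genes tested, and all 4 were lower, against 8.49% called lower overall. LPIN1 fell by 1.38 on the log2 scale, GPAM by 1.32, DGAT2 by 1.13 and AGPAT2 by 0.83, which are levels 2.61-fold, 2.5-fold, 2.19-fold and 1.78-fold lower. These 4 genes cover each successive step from the first acylation to the last. None of the genes for glycerol 3-phosphate supply (GPD1, PCK1, PCK2) and glycerol release (AQP7) passed the test in this comparison. A gene was called DE where its log2 fold change exceeded 0.26 in size and its adjusted p lay under 0.05, and levels are CPM, the counts scaled to a common library total after TMM normalization.

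**Figure D1:**
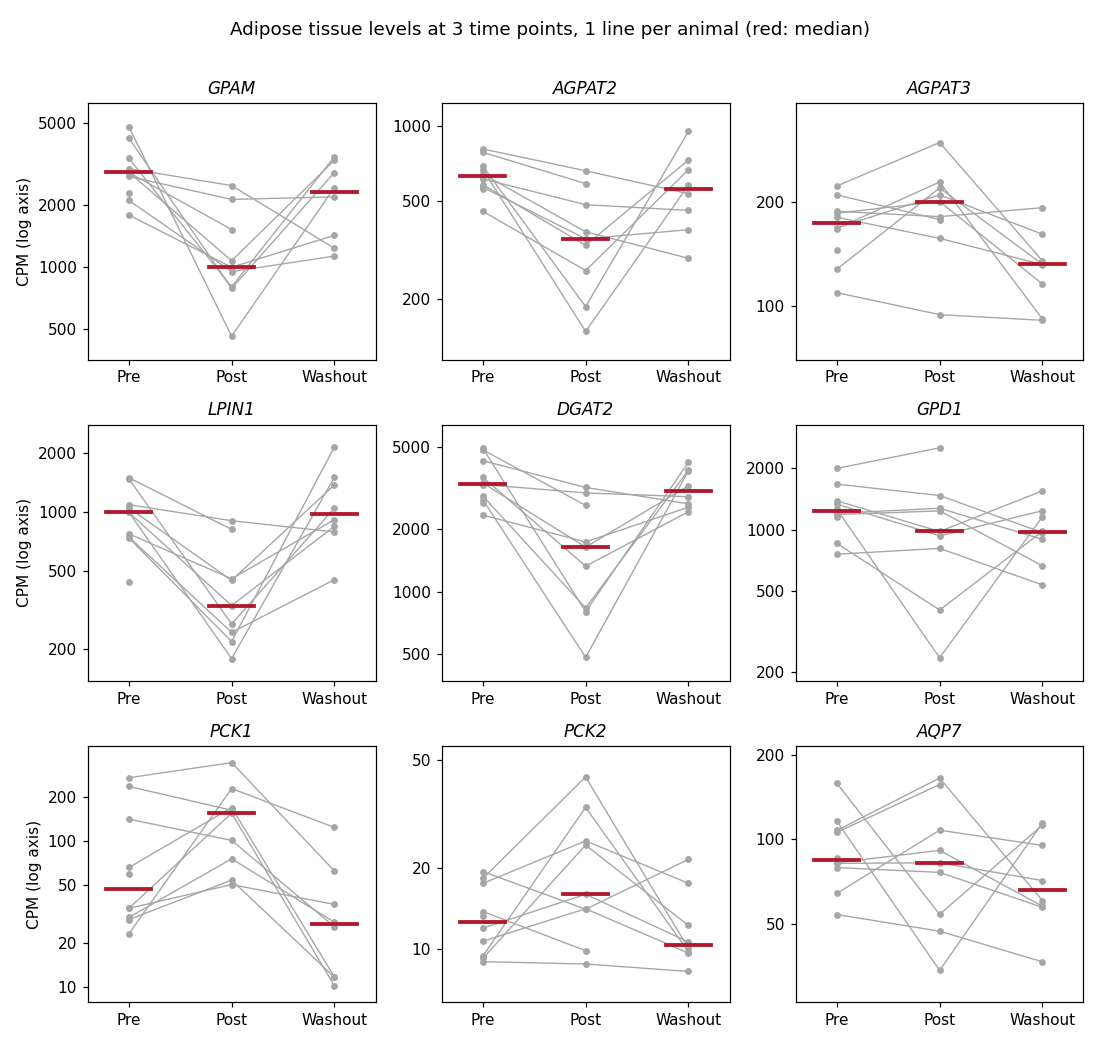
Levels of the 9 genes in AT in CPM on a log axis before treatment, at its end and at washout, with 1 grey line per animal and the median as a red bar. GPAM, AGPAT2, LPIN1 and DGAT2 dip post-treatment in all 9 animals with both libraries, and PCK1 declines to washout in all 8 animals measured at both times.

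GPAM, the mitochondrial acyltransferase of the first step, ran from 1789 to 4815 CPM across the 10 pre-treatment libraries with a median of 2885 CPM. Across the 9 post-treatment libraries it ran from 460 to 2488 CPM with a median of 997 CPM. The ranges overlapped, but 7 of the 9 post-treatment libraries lay below every pre-treatment library. GPAM was lower in 9 of 9 animals, with log2 changes from −3.39 in animal 20275 to −0.27 in animal 23004. The fitted log2 fold change was −1.32 ± 0.30 (SE), with an adjusted p of 0.00973 by edgeR's quasi-likelihood test.

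AGPAT2, the acyltransferase whose loss in humans causes congenital lipodystrophy, was at 453–809 CPM pre-treatment (median 627 CPM) and at 149–661 CPM post-treatment (median 351 CPM). It was lower in 9 of 9 animals, and 6 of 9 post-treatment libraries lay below the whole pre-treatment range. The log2 fold change was −0.83 ± 0.24 (SE, adjusted p = 0.0270 by edgeR). This call was lost without any 1 of 3 animals: the adjusted p rose to 0.0670 without animal 20275, 0.0570 without animal 22130 and 0.0514 without animal 21866, while the log2 fold change stayed at −0.69, −0.74 and −0.84. AGPAT3, a related acyltransferase, did not pass the test. Its levels of 109–222 CPM pre-treatment and 94.1–297 CPM post-treatment overlapped almost fully, 5 animals were higher and 4 lower, and the log2 fold change was 0.16 with a 95% interval from −0.11 to 0.43.

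LPIN1, the phosphatidate phosphatase that is also known as a transcriptional co-regulator, ran from 440 to 1502 CPM pre-treatment (median 998 CPM) and from 179 to 905 CPM post-treatment (median 334 CPM). The ranges overlapped. The lowest pre-treatment library, that of animal 19832 at 440 CPM, lay well under the next lowest at 739 CPM. That animal gave no post-treatment AT library. The post-treatment libraries of animals 20456 (818 CPM) and 23004 (905 CPM) lay above both of these values. In each of the 9 paired animals LPIN1 was lower post-treatment, with log2 changes from −2.48 (animal 22130) to −0.27 (animal 23004). The fitted log2 fold change of −1.38 ± 0.28 (SE) had an adjusted p of 0.00549 by edgeR.

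DGAT2, which adds the final acyl chain, was at 2342–4909 CPM pre-treatment (median 3313 CPM) and at 484–3181 CPM post-treatment (median 1643 CPM). It was lower in 9 of 9 animals, with 6 of the 9 post-treatment libraries under the whole pre-treatment range. The decrease was small in animal 20261 (log2 change −0.13) and large in animal 22130 (−2.61), and the fitted value was −1.13 ± 0.27 (SE, adjusted p = 0.0135 by edgeR).

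For LPIN1, GPAM and DGAT2, the 4 post-treatment libraries with the lowest levels were also the 4 with the most macrophage transcript. LPIN1 was lowest in animals 22130 (179 CPM), 24849 (219 CPM), 21189 (244 CPM) and 20275 (269 CPM), and these 4 libraries had the highest macrophage marker sums of the post-treatment group, at 3767, 3702, 5357 and 6893 CPM. Animal 20275 held the lowest post-treatment level of GPAM (460 CPM), AGPAT2 (149 CPM), DGAT2 (484 CPM), GPD1 (235 CPM) and AQP7 (34.1 CPM). The smallest macrophage sum of that group, 1063 CPM in animal 21866, went with a LPIN1 level of 334 CPM and a GPAM level of 997 CPM, the medians of the group. AGPAT2 differed in this respect: its 4 lowest post-treatment libraries included animal 21866 at 331 CPM, while animal 21189 lay at 375 CPM. Relative to its own pre-treatment library, LPIN1 in animal 21866 went from 997 to 334 CPM. Whether cell makeup contributes to the decreases was not tested.

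The library identifiers fall into 3 number series whose meaning is unknown, and the decreases were present within the 2 series that held pre- and post-treatment AT libraries of the same animals. In the 6 animals with both libraries in the last series the mean log2 change was −1.57 for LPIN1, −1.54 for GPAM, −1.22 for DGAT2 and −0.92 for AGPAT2. In the 2 animals with both libraries in the middle series it was −0.57 for LPIN1, −0.60 for GPAM, −0.66 for DGAT2 and −0.38 for AGPAT2. With the series as a covariate the same number of members, 4, was called.

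None of the genes that supply glycerol 3-phosphate was called post-treatment. GPD1, the cytosolic glycerol 3-phosphate dehydrogenase, was at 759–2003 CPM pre-treatment (median 1233 CPM) and at 235–2527 CPM post-treatment (median 981 CPM). The post-treatment range enclosed the pre-treatment range, 4 animals were higher and 5 lower, and the log2 fold change was −0.35 (95% interval −0.87 to 0.17). The lowest value came from animal 20275, where GPD1 went from 1261 to 235 CPM.

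PCK1, the enzyme regarded as the control point of glyceroneogenesis in fat, varied widely between animals before treatment, from 23.2 CPM in animal 24849 to 272 CPM in animal 26292, with a median of 47.4 CPM. Post-treatment it ran from 50.5 to 345 CPM with a median of 156 CPM. It was higher in 7 of 9 animals, most of all in animal 24849, where it went from 23.2 to 229 CPM, and lower in animals 20456 and 20275. The log2 fold change of 0.87 ± 0.42 (SE) had a 95% interval from −0.01 to 1.75 and did not pass the test (adjusted p = 0.15 by edgeR).

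PCK2, the mitochondrial isoenzyme, was at 9.0–19.3 CPM pre-treatment (median 12.6 CPM) and 8.83–43.1 CPM post-treatment (median 15.9 CPM). Of the 9 post-treatment libraries, 4 lay above every pre-treatment library: animals 22130, 21189, 20275 and 24849, the same 4 with the highest macrophage sums. The log2 fold change was 0.59 ± 0.23 (SE), with an adjusted p of 0.0760 by edgeR. Under DESeq2 the adjusted p was 0.0463, without animal 20456 it was 0.0381 and without animal 23004 it was 0.0381, so that the call for PCK2 depends on these choices.

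AQP7, the glycerol channel, was at 53.9–158 CPM pre-treatment and 34.1–165 CPM post-treatment, with medians of 84.1 and 82.4 CPM. It was higher in 5 animals and lower in 4, and the log2 fold change was −0.08 with a 95% interval from −0.59 to 0.42. Near-identical copies of AQP7 exist in primate genomes. Whether the macaque assembly used here holds them was not checked, and the counts are uncertain where reads could be split between copies.

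At washout the pattern turned around in AT. Compared to post-treatment, 7 of the 9 genes were DE, against 35.4% of all genes tested. The 4 esterification enzymes were higher (17.6% of all genes were called higher) and PCK1, PCK2 and AGPAT3 were lower (17.8% were called lower). This comparison shares its post-treatment libraries with the one before, so the directions of the 2 comparisons are not independent of each other.

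**Figure D2:**
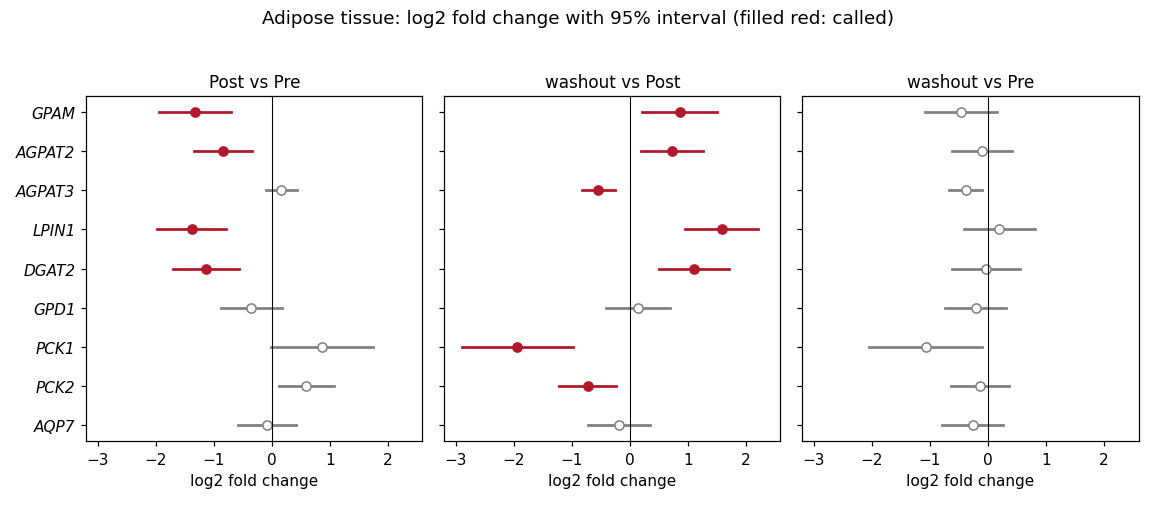
Log2 fold changes of the 9 genes in AT for the 3 comparisons of time points, with 95% intervals as horizontal bars, filled red where the gene was called DE and open grey where not. Red marks sit on GPAM, AGPAT2, LPIN1 and DGAT2 on the left of 0 post-treatment and on the right of 0 at washout compared to post-treatment, and no gene is red at washout compared to pre-treatment.

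LPIN1 at washout ran from 453 to 2156 CPM (median 984 CPM), and 5 of the 8 washout libraries lay above every post-treatment library. It was higher than post-treatment in 7 of 8 animals, and the fitted log2 value was 1.58 ± 0.30 (SE, adjusted p = 0.000641 by edgeR). DGAT2 was at 2432–4202 CPM (median 3056 CPM), higher in 6 of 8 animals, and its log2 fold change was 1.11 ± 0.29 (SE, adjusted p = 0.00623 by edgeR). Animal 23004, in which LPIN1 and GPAM had decreased least during treatment, was an exception for LPIN1, DGAT2 and GPAM. Its LPIN1 went from 905 to 794 CPM and its GPAM from 2488 to 1233 CPM.

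GPAM was at 1129–3434 CPM at washout (median 2313 CPM) and AGPAT2 at 293–952 CPM (median 556 CPM). GPAM was higher than post-treatment in 7 of 8 animals (log2 fold change 0.86 ± 0.31, adjusted p = 0.0365 by edgeR) and AGPAT2 in 5 of 8 (0.73 ± 0.26, adjusted p = 0.0316). Both calls were close to the threshold. GPAM was not called without animal 20275, 21866, 22130, 24849 or 26292 (adjusted p from 0.0555 to 0.117), and AGPAT2 was not called without animal 20275, 21866, 22130 or 24849 (adjusted p from 0.0760 to 0.109). GPAM was also not called with the identifier series as a covariate (0.49, adjusted p = 0.16 by edgeR), with voomWithQualityWeights of limma (0.59, adjusted p = 0.0888) or with only the 2 time points compared (0.98, adjusted p = 0.0754). AGPAT2 was not called under these 3 settings either (adjusted p of 0.0520, 0.105 and 0.108), nor without the replicate block, which pairs the libraries of an animal (0.0513). In the 3 animals with both libraries in the last identifier series the mean log2 change was 1.08 for LPIN1, 0.60 for DGAT2, 0.27 for GPAM and 0.16 for AGPAT2, and in the 5 animals whose libraries came from different series it was 1.96, 1.57, 1.40 and 1.14.

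PCK1 moved furthest of the 9 genes at washout. It ran from 10.2 to 124 CPM with a median of 26.9 CPM, against 156 CPM post-treatment, and 6 of the 8 washout libraries lay below every post-treatment library. All 8 animals had less PCK1 at washout than post-treatment, and the fitted log2 value was −1.94 ± 0.45 (SE, adjusted p = 0.00312 by edgeR), a level 3.84-fold lower. In the 3 animals with both libraries in the last series the mean log2 change was −3.32, and in the 5 with libraries of different series it was −1.44. The decrease was called under each of the 21 alternatives run.

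PCK2 at washout was at 8.28–21.4 CPM (median 10.4 CPM), lower than post-treatment in 7 of 8 animals, at a fitted log2 value of −0.73 ± 0.24 (SE, adjusted p = 0.0215 by edgeR). It was not called without animal 20275 (adjusted p = 0.0628) or 24849 (0.0806), nor with the identifier series (0.0787), voomWithQualityWeights (0.0591) or only the 2 time points compared (0.0562). AGPAT3 was at 90.6–192 CPM (median 132 CPM), lower in 7 of 8 animals, at a fitted log2 value of −0.55 ± 0.14 (SE, adjusted p = 0.00444), and it was called under each of the 21 alternatives. Animal 23004 was again the exception for both genes, and its washout library had the highest macrophage sum of the group, 3203 CPM. Over the same comparison all 11 macrophage markers were called lower, as were 3 of 11 progenitor and 2 of 6 T cell markers, while 3 of 4 erythroid and 3 of 7 endothelial markers were called higher. Their part in the changes of the members was not tested. Neither GPD1 (log2 fold change 0.14, 95% interval −0.41 to 0.69) nor AQP7 (−0.18, 95% interval −0.72 to 0.36) passed the test.

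Washout compared to pre-treatment asks whether the levels of the first biopsy were reached again. None of the 9 genes was called, while 20.5% of all genes were. The unadjusted p was under 0.05 for 2 of them, both lower at washout: AGPAT3 at −0.38 ± 0.14 (log2, SE, adjusted p = 0.0516 by edgeR) and PCK1 with −1.07 ± 0.46 (adjusted p = 0.111). DESeq2 called AGPAT3 and voomWithQualityWeights called AGPAT3 and PCK1. AGPAT3 was also called without animal 22130 (adjusted p = 0.0411), 23004 (0.0338) or 24849 (0.0494).

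PCK1 lay below its own pre-treatment level at washout in 6 of 8 animals, and 3 washout libraries, at 10.2, 11.7 and 11.7 CPM, lay under the whole pre-treatment range. The 8 animals ranged from −2.48 on the log2 scale in animal 21189 to 2.42 in animal 24849, and without animal 24849 the log2 fold change was −1.48 (adjusted p = 0.0130). Animal 24849 had the lowest PCK1 level of all animals before treatment and the highest at washout. LPIN1 and DGAT2 lay close to pre-treatment, with log2 fold changes of 0.20 (95% interval −0.40 to 0.81) and −0.03 (−0.61 to 0.56), and AGPAT2 had −0.11 (−0.63 to 0.41). None of these differences was distinguishable from 0 at this spread between animals. GPAM stood somewhat lower at −0.46 (−1.09 to 0.17), below its own pre-treatment level in 6 of 8 animals. It was called lower with the identifier series as a covariate (−0.82, adjusted p = 0.0321 by edgeR) and with only the 2 time points compared (−0.52, adjusted p = 0.0314).

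Over the 27 AT libraries the 4 esterification enzymes varied together in log2 CPM. GPAM, LPIN1, DGAT2 and AGPAT2 had Pearson's r of 0.770 to 0.905 with one another, with the highest value between AGPAT2 and DGAT2. GPD1 joined them at r of 0.559 to 0.700, and AQP7 had r of 0.636 with GPD1 and 0.231 to 0.456 with the 4 enzymes. PCK2 ran opposite to the 4 enzymes, with r from −0.671 to −0.605, and was closest to AGPAT3 at r of 0.623. The points share animals and time points, and with the mean of each time point removed r among the 4 enzymes was still 0.644 to 0.852 and r of PCK2 with them −0.560 to −0.515.

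**Figure D3:**
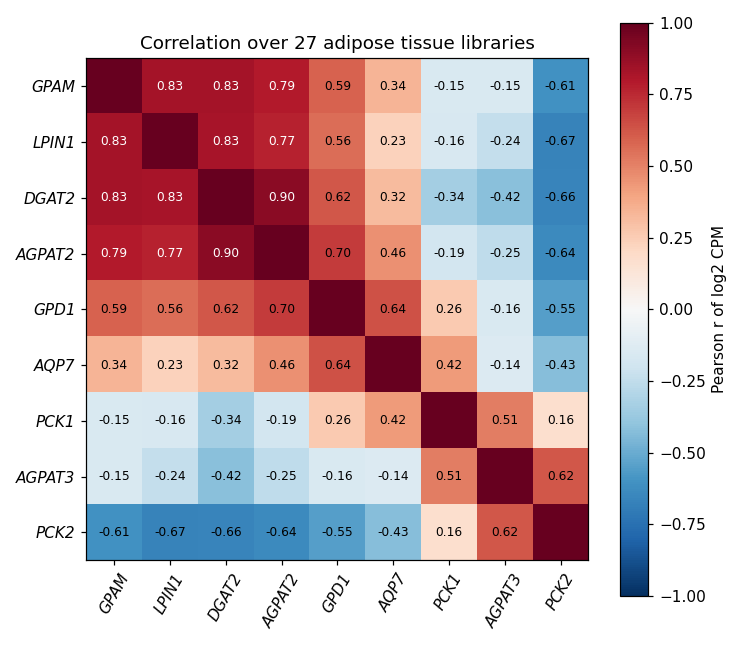
Pearson's r between the log2 CPM of each pair of the 9 genes over 27 AT libraries, on a colour scale from −1 (blue) to 1 (red). The block of GPAM, LPIN1, DGAT2 and AGPAT2 at the upper left holds values of 0.77 and above, and the PCK2 row is negative against that block.

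The members differed in how they followed the marker lists, given here as a description over the same 27 libraries. The macrophage marker level had r of 0.769 with AGPAT3, 0.749 with PCK2 and 0.540 with PCK1. Its r was −0.617 with DGAT2, −0.582 with AGPAT2, −0.533 with LPIN1, −0.530 with GPAM, −0.294 with AQP7 and −0.279 with GPD1. With time point means removed it was 0.672 for AGPAT3 and 0.703 for PCK2, but 0.234 for PCK1. It was then −0.489 for AGPAT2, −0.45 for DGAT2, −0.43 for GPAM and −0.204 for LPIN1. The mature adipocyte level had its highest r with AQP7 (0.789) and GPD1 (0.698). That level is a plain sum of CPM, and FABP4 was its largest part. Pre-treatment, FABP4 had a mean of 13390 CPM, against 3057 CPM for ADIPOQ. PCK1 had positive r with both lists, 0.571 with the adipocyte and 0.540 with the macrophage level, and with time point means removed its r with the adipocyte level was 0.727.

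Of all genes tested in AT, those with levels most like the mean of the 9 genes over the 27 libraries were PDP2 (r = 0.911), POMGNT2 (0.891), ADGRB2 (0.878), FITM2 (0.873) and TEX2 (0.856). For single genes, the 2 closest were ACACA (0.928), which makes malonyl-CoA for fatty acid synthesis, and GNA14 (0.925) for GPAM, and THRSP (0.947), a lipogenic nuclear protein, and AKR1C1 (0.936) for DGAT2. LPIN1 was closest to FFAR4 (0.902), a receptor for long-chain fatty acids, and DLAT (0.899), a subunit of pyruvate dehydrogenase, and AGPAT2 to PTH1R (0.936) and TUSC5 (0.932). PCK1 was closest to CAT (0.847), which is catalase, and ANGPTL4 (0.836), a secreted inhibitor of lipoprotein lipase. AGPAT3 was closest to the lysosomal proteins CTSD (0.880) and CTSA (0.880), PCK2 to BAX (0.897) and CD22 (0.887), GPD1 to S100B (0.856) and SUCLA2 (0.847), and AQP7 to PLA2G16 (0.898) and FAH (0.888). These are the highest values among many genes and carry no test.

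A list of 31 other genes of triglyceride synthesis, fatty acid activation, lipid droplet formation and glycerol handling, of which 28 were tested in AT, was examined in the same way. Post-treatment, 0 were called higher and 4 lower, where 8.49% of all genes were called lower. PNPLA3, a lipid droplet protein with acyl hydrolase activity, had a log2 fold change of −1.05 ± 0.33 (SE), FITM2, needed for droplet budding from the endoplasmic reticulum, of −0.93 ± 0.21, and ACSL1, the main long-chain acyl-CoA synthetase of fat, of −0.54 ± 0.17. The fourth was MOGAT1, a monoacylglycerol acyltransferase, which had 4 to 56 counts per library pre-treatment, 0 to 7 post-treatment and 6 to 83 at washout. It lies below the level at which genes were to be named and was added after its values were seen. The median log2 fold change of the 28 genes was 0.06, against 0.03 for all genes and −0.35 for the 9 members. Other family members did not pass the test, among them AGPAT1 (−0.21), LPIN2 (0.13), LPIN3 (−0.23), GPAT3 (0.27) and GPAT4 (0.04), which are further acyltransferases and lipins. Uncalled genes of the list with values further from 0 included MOGAT2 (−0.82), AQP9 (0.72), PC (−0.69), GK (0.61) and AGPAT4 (0.48).

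At washout compared to post-treatment, 4 of the 28 were called higher and 7 lower, against 17.6% and 17.8% of all genes. Beside MOGAT1, the genes that rose were PNPLA3 (1.81 ± 0.35, SE), PC (0.85 ± 0.29), the pyruvate carboxylase that makes the substrate of PCK1, and LPIN3 (0.63 ± 0.19). Among those that fell were the acyl-CoA synthetases ACSL4 (−0.78 ± 0.15) and ACSL5 (−0.70 ± 0.14), AGPAT4 (−0.72 ± 0.19), GPD2 (−0.57 ± 0.17), the mitochondrial glycerol 3-phosphate dehydrogenase, and GK (−0.85 ± 0.27), the glycerol kinase. Counts of GK are uncertain where reads could be split between near-identical copies, which were not checked in this assembly. Of the acyltransferases of the AGPAT family, AGPAT2 was thus called higher and AGPAT3 and AGPAT4 lower. At washout compared to pre-treatment 0 of the 28 were called.

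In SM, none of the 9 genes was called in any comparison by edgeR, and none had an unadjusted p under 0.05. Post-treatment compared to pre-treatment, 0% of 12617 genes were called, at washout compared to post-treatment 0.19% and at washout compared to pre-treatment 0.0634%. Neither DESeq2 nor voomWithQualityWeights called a member. Over all genes, the calls at washout depended on the method. Compared to post-treatment, DESeq2 called 359 genes and voomWithQualityWeights 17, against 24 by edgeR. Compared to pre-treatment, DESeq2 called 179 and voomWithQualityWeights 674, against 8 by edgeR. The log2 fold changes ran from −0.36 (GPD1) to 0.37 (AGPAT2) post-treatment, from −0.54 (AGPAT2) to 0.35 (LPIN1) at washout compared to post-treatment and from −0.33 (PCK2) to 0.57 (GPAM) at washout compared to pre-treatment. The intervals were wide for several genes: for DGAT2 post-treatment the 95% interval ran from −1.42 to 1.36, which holds both 0 and the value of −1.13 seen in AT.

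In SM, the pre- and post-treatment libraries of animal 24849 stood apart for DGAT2, AGPAT2 and PCK1. DGAT2 was at 8.34–23.0 CPM in 5 pre-treatment SM libraries and at 133 CPM in animal 24849, and post-treatment at 2.25–40.9 CPM in 7 libraries and at 182 CPM in the same animal. AGPAT2 in that animal was at 31.1 and 51.1 CPM, against at most 9.30 and 9.42 CPM in the others, and PCK1 at 8.40 and 6.75 CPM, against at most 0.85 and 1.58 CPM. The same 2 libraries had ADIPOQ (adiponectin, made by adipocytes) at 128 and 123 CPM and PLIN1 (the adipocyte lipid droplet coat protein) at 104 and 133 CPM, whereas the other 19 SM libraries lay at or below 43.3 CPM for ADIPOQ and 41.1 CPM for PLIN1. At washout the SM library of animal 24849 had 6.06 CPM of ADIPOQ and 17.1 CPM of DGAT2. The share of AT or of fat cells within the muscle in these values was not tested.

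**Figure D4:**
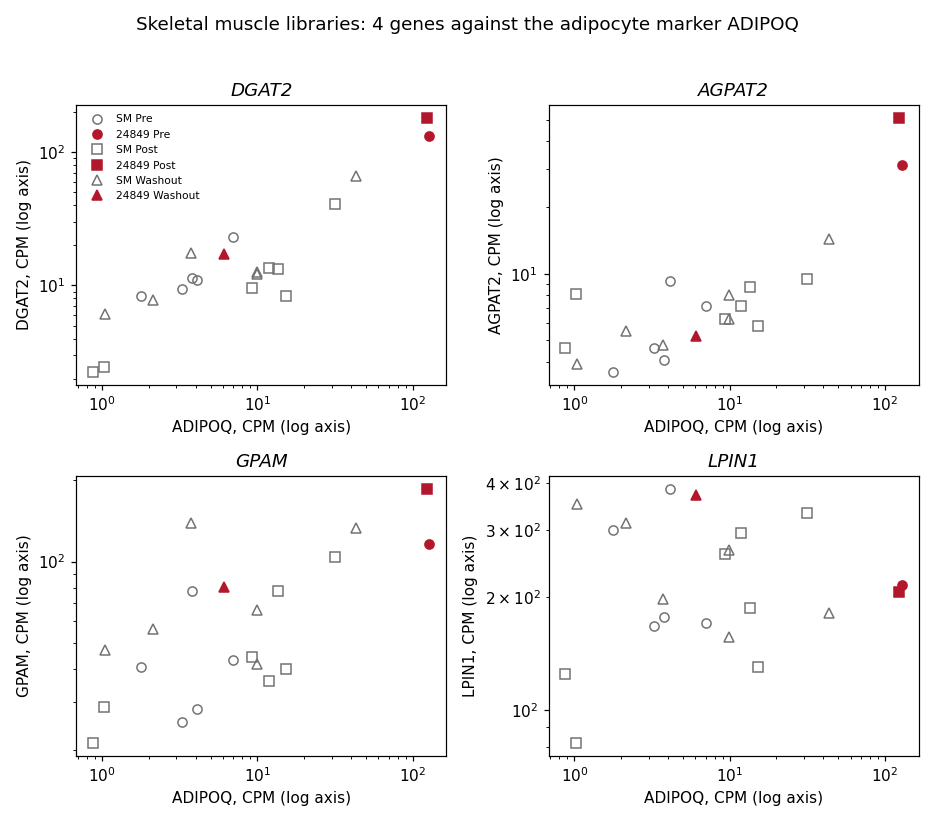
DGAT2, AGPAT2, GPAM and LPIN1 in 21 SM libraries against the adipocyte transcript ADIPOQ, all in CPM on log axes, with animal 24849 filled in red and marker shapes for the time points. The pre- and post-treatment libraries of animal 24849 lie at the far right, high for DGAT2, AGPAT2 and GPAM and within the range of the other libraries for LPIN1.

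GPAM in SM was at 25.5–117 CPM pre-treatment (median 41.9 CPM), 21.2–186 CPM post-treatment (median 42.1 CPM) and 41.7–140 CPM at washout (median 66.3 CPM), and animal 24849 held the highest value at the first 2 time points. LPIN1, which muscle also uses, was at 167–387 CPM, 81.7–334 CPM and 157–373 CPM, with medians of 195, 196 and 266 CPM, and animal 24849 did not stand out. GPD1 was at 703–1416 CPM, 243–1671 CPM and 599–1376 CPM, and its lowest value, like the lowest LPIN1, came from the post-treatment library of animal 21189, which also had the lowest muscle fibre marker sum (58552 CPM). The ranges of the 3 time points overlapped for each of these genes. PCK1 was near the detection limit in SM outside animal 24849, with 4 to 14 counts in the other 5 pre-treatment libraries and 0 counts in 1 washout library.

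Without the pre- and post-treatment libraries of animal 24849 the number of members called in SM was still 0 in each comparison, and the log2 fold change of AGPAT2 at washout compared to post-treatment moved from −0.54 to −0.18. Leaving out the post-treatment libraries of animals 21189 and 21866 also left 0.

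Before treatment the 2 tissues differed in most of these genes, as they did in most genes tested. With both tissues scaled together, 8 of the 9 genes were called, against 77.1% of 13662 genes. Of these, 7 were higher in AT, against 41.8% of all genes, and 1 was lower, against 35.3%. The log2 difference, AT minus SM, was 6.64 ± 0.75 (SE) for DGAT2, 5.49 ± 0.47 for AGPAT2, 5.27 ± 0.69 for PCK1 and 5.08 ± 0.42 for GPAM, with adjusted p from 3.24e-13 (GPAM) to 1.77e-08 (PCK1) by edgeR. Of the 9 genes, these 4 differed most between the tissues. GPAM was at 1390–3739 CPM in 10 AT libraries and 35.1–161 CPM in 6 SM libraries, and DGAT2 at 1867–3873 CPM and 11.3–183 CPM. The upper end of SM was animal 24849 for each of the 4, and without its pre- and post-treatment SM libraries the differences were 7.13 for DGAT2, 5.94 for AGPAT2, 5.93 for PCK1 and 5.27 for GPAM.

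**Figure D5:**
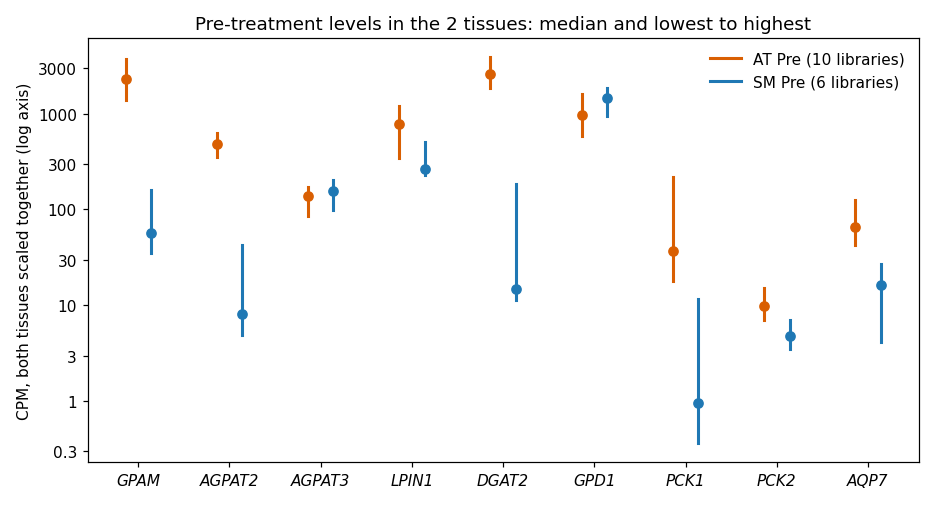
Pre-treatment levels of the 9 genes in 10 AT libraries (orange) and 6 SM libraries (blue), in CPM with both tissues scaled together, on a log axis, as the median (point) and the range from lowest to highest library (bar). Bars of the 2 tissues are apart for GPAM, AGPAT2, DGAT2, PCK1 and AQP7 and overlap for AGPAT3, LPIN1, GPD1 and PCK2, PCK2 by a narrow margin. How often bars are apart among all genes was not counted.

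AQP7 was higher in AT by 2.23 ± 0.39 (SE, log2), LPIN1 by 1.33 ± 0.31 and PCK2 by 1.26 ± 0.29. For AGPAT3 no difference was detected, at −0.12 with a 95% interval from −0.50 to 0.26. GPD1, which in muscle serves the glycerol phosphate shuttle, was lower in AT, with a difference of −0.69 ± 0.30 (adjusted p = 0.0348 by edgeR), at 583–1590 CPM against 942–1830 CPM in SM. That direction rests on the scaling. DESeq2, and DESeq2 size factors in edgeR, still called 1 member lower in AT. With library size alone the difference for GPD1 was 0.05, and AGPAT3 then was higher in AT by 0.62. Library size alone also moved the median of all genes from 0.16 to 0.90. GPD1 was also not called without the animal in the model (−0.52) or with the identifier series as a covariate (−0.39), and it was lost without animal 19832, 21189, 22130 or 23004 (adjusted p from 0.0592 to 0.0819). Of the 29 other pathway genes tested, 15 were higher and 9 lower in AT, against 41.8% and 35.3% of all genes, among them LPIN2 (3.04 ± 0.33) and ACSL5 (3.88 ± 0.34) on the higher side, and FITM1 (−11.46 ± 0.43), the muscle paralogue of FITM2, and GPD2 (−2.67 ± 0.21) on the lower.

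The change in AT was then set against the change in SM in 1 model, to ask whether the 2 tissues differed in their response. For post-treatment compared to pre-treatment none of the 9 genes was called, where 0.0487% of 12322 genes were. The unadjusted p was under 0.05 for 3 of them: GPAM with a difference (AT minus SM) of −1.70 ± 0.45 (SE, log2; adjusted p = 0.142 by edgeR), LPIN1 with −1.28 ± 0.38 (0.198) and AGPAT2 with −1.25 ± 0.44 (0.291). DGAT2 had −1.15 ± 0.67 and PCK1 0.93 ± 0.85. DESeq2 called GPAM (−1.69, adjusted p = 0.0285) and voomWithQualityWeights called none, so a difference between the tissues in this change was not shown.

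For washout compared to post-treatment 3 genes were called, where 22.7% of all genes were: AGPAT2 with 1.25 ± 0.45 (SE, adjusted p = 0.0439 by edgeR), LPIN1 with 1.22 ± 0.38 (0.0197) and AGPAT3 with −0.88 ± 0.27 (0.0196). In AT AGPAT2 and LPIN1 had risen and AGPAT3 had fallen, and in SM the fitted values were −0.54, 0.35 and 0.32. DGAT2 (1.35 ± 0.69), GPAM (0.61 ± 0.45) and PCK1 (−1.84 ± 0.91) did not pass the test. Without the pre- and post-treatment SM libraries of animal 24849 the value was 0.91 for AGPAT2 (adjusted p = 0.0941), −0.74 for AGPAT3 (0.0523) and 1.33 for LPIN1 (0.0188), so that LPIN1 alone was called. LPIN1 was lost in turn without animal 22130 (0.94, adjusted p = 0.0784) and AGPAT3 without animal 20275, 21189 or 24849, and AGPAT2 without each of 7 animals (19832, 20275, 21189, 21866, 22130, 23004 and 24849). With animal 24849 left out of both tissues, 2 members were called, 1 higher and 1 lower. The lower one was not AGPAT3, so a member not called in the main fit was called there.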

How the data were processed

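Per the labels and the study's methods, polyA RNA from frozen biopsies was made into stranded mRNA libraries and sequenced as paired reads of 50 nt, and the authors used STAR for alignment against the MacaM assembly. They deposited whole-number read counts per gene that had not been normalized. The counter, its strand setting and the annotation are not given in the sources used here. The table held 16103 entries for 48 libraries, and 70 entries that repeated a gene with identical counts were dropped, leaving 16033 genes. Of 51 labelled samples, 3 SM samples without counts were not analysed here. Totals ranged from 14455195 to 23940980 (median 18578869).

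A gene was tested in a tissue if 10% or more of that tissue's libraries reached 0.5 CPM, which held for 13367 genes in AT and 12617 in SM. TMM factors, log2 CPM (prior count 2) and robust quasi-likelihood tests came from edgeR 4.0.16 under R 4.3.3, with a separate model of time and animal for AT and for SM. P-values were adjusted by Benjamini-Hochberg across every gene of a model. AT minus SM was an interaction over 12322 genes, with animal within tissue, and AT compared to SM used 13662 genes. The fit was tested on simulated data only for post-treatment compared to pre-treatment within each tissue. The simulated data held no differences between animals, and the other comparisons were not simulated. Same-animal libraries correlated after removal of the time point means (median r 0.352 over 25 pairs in AT and 0.279 over 19 in SM, against −0.0354 and −0.0464 for different animals), and animal was the block of each fit. Replicates are animals, 1 library per animal and time point in each tissue.

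Every member was named whatever its value. Of the other pathway genes, up to 5 with the highest and up to 5 with the lowest log2 fold change among those called with a mean of 1 CPM or more were named, with a few others given for their families after their values were seen, and genes like the members were named by the highest r. The members and the lists, written from general knowledge, were chosen with earlier results of these data known. Missing symbols on the lists included PLIN4, CIDEC, LIPE and PNPLA2 among adipocyte markers. Lists for progenitors, endothelium, T cells and erythroid cells were summed as well.

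The alternatives were voomWithQualityWeights of limma 3.58.1, DESeq2 1.42.0, library size alone or DESeq2 size factors as normalization, no filter, a filter at 10 counts in each library, a model without animal, the identifier series as a covariate, no fold limit, only the 2 time points compared, AT without the pre-treatment library of animal 20275, and each animal left out. Chosen after seeing the data were edgeR's earlier quasi-likelihood method and SM without the post-treatment libraries of animals 21189 and 21866 or without those of animal 24849 before and after treatment. Figures were drawn with matplotlib 3.10.9.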

Additional observations from a re-analysis of the deposited data

Results flagged for a closer look

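Dixon's ratio at the 95% level flags about 1 of 20 sets by chance where values are normally spread and sets are independent. Here it was taken on CPM without a log, and the members share their libraries, so that rate does not carry over. In 10 of the 54 sets of libraries of 1 tissue and time point, a member had 1 library set apart from all others by this ratio. Of these, 6 concerned animal 24849 in SM: AGPAT2 at 31.1 CPM pre-treatment (next 9.30 CPM) and 51.1 CPM post-treatment (next 9.42 CPM), DGAT2 at 133 CPM (next 23.0 CPM) and 182 CPM (next 40.9 CPM), and PCK1 at 8.40 CPM (next 0.85 CPM) and 6.75 CPM (next 1.58 CPM). These are the 2 SM libraries with the highest ADIPOQ and PLIN1 levels, and the part of adipocyte RNA in them was not tested.

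The washout SM library of animal 20456 was high for AGPAT2 at 14.4 CPM (next 7.98 CPM) and DGAT2 at 65.9 CPM (next 17.5 CPM), and it also had the highest ADIPOQ level of the washout group, 43.3 CPM. PCK2 in the washout SM library of animal 22130 was at 6.08 CPM (next 3.0 CPM). In AT, PCK1 at washout in animal 24849 was at 124 CPM (next 62.6 CPM).

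The change from post-treatment to washout differed between AT and SM by the interaction test for AGPAT2 (1.25 on the log2 scale, AT minus SM), LPIN1 (1.22) and AGPAT3 (−0.88).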

How the results depend on the processing

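Post-treatment compared to pre-treatment in AT, the number of members called was 3 to 5 under every alternative against 4, and LPIN1, GPAM and DGAT2 were called lower under all 21. At washout compared to post-treatment in AT the number fell from 7 to 4 under voomWithQualityWeights, with the identifier series as a covariate and with only the 2 time points compared, and was 4 to 7 when 1 animal was left out, while LPIN1, DGAT2, PCK1 and AGPAT3 were called under all 21. At washout compared to pre-treatment in AT it was 2 under voomWithQualityWeights and with only the 2 time points compared, 1 under DESeq2 and with the identifier series, and 0 to 2 without 1 animal, against 0. With the identifier series, 1 member, AGPAT3 (0.85, adjusted p = 0.0217 by edgeR), was called in SM at washout compared to post-treatment, against 0. Over all genes in SM, that covariate moved the calls from 24 to 2648 at washout compared to post-treatment and from 8 to 1353 compared to pre-treatment. For AT minus SM it was 1 under DESeq2 for post-treatment compared to pre-treatment, against 0. For washout compared to post-treatment it was 1 without the replicate block and 1 without the pre- and post-treatment SM libraries of animal 24849, against 3, and 1 to 3 without 1 animal. Without the replicate block, which pairs the libraries of an animal, 4, 6 and 0 members were called in the 3 AT comparisons and 0 in each of those in SM, while over all genes 1420 were called post-treatment compared to pre-treatment in AT, and 216 and 41 in SM at washout compared to post- and pre-treatment. With the AT pre-treatment library of animal 20275 left out, 1162 genes were called post-treatment in AT, against 2068, and 3 members, AGPAT2 being lost. With 1 animal left out, the calls over all genes in that comparison ran from 805 (without 22130) and 998 (without 20275) to 2214 (without 23004).

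Values near 0 changed sign. AQP7 post-treatment in AT was 0.0812 under voomWithQualityWeights and −0.19 to 0.0792 without 1 animal, and at washout compared to post-treatment −0.39 to 0.0172 without 1 animal. GPD1 at washout compared to post-treatment was −0.0382 under voomWithQualityWeights, −0.13 without the replicate block and −0.0775 to 0.29 without 1 animal. At washout compared to pre-treatment DGAT2 was 0.0759 with library size alone, 0.00032 without the AT pre-treatment library of animal 20275 and −0.13 to 0.0525 without 1 animal, AGPAT2 was −0.22 to 0.0031 without 1 animal, and LPIN1 was −0.0657 with the identifier series and −0.0354 to 0.31 without 1 animal. For AT compared to SM pre-treatment, AGPAT3 was 0.62 with library size alone and 0.19 with the identifier series, and GPD1 was 0.0495 with library size alone, a scaling that moved the median of all genes from 0.16 to 0.90. The causes of the other shifts were not tested.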
